A study of Mus musculus with 61 samples.

Results

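The genes described here make, package, recover and break down the inhibitory transmitters GABA and glycine. They are Gad1, Gad2, Slc32a1, Slc6a13, Slc6a5, Slc6a9 and Abat, 7 genes of the 18193 that the array names through a probe set assigned to 1 gene. Every probe set annotated to exactly 1 of these genes was taken, whatever its values, which gave 15 of the 45037 probe sets. The study hybridized RNA of the pituitary gland and of 4 brain regions to Affymetrix mouse arrays: hippocampus, hypothalamus, pag (the periaqueductal gray of the midbrain) and bnst, the bed nucleus of the stria terminalis. The tissue came from male wild-type mice, 8 weeks old, of 6 inbred strains, C57BL/6J, DBA/2J, A/J, FVB/NJ, C3H/HeJ and 129S6/SvEvTac, with no treatment and no transgene. There were 61 arrays in 30 groups of strain and region, 2 in each group except C3H/HeJ bnst, which had 3. An array held RNA of 1 to 5 mice, with 5 for the pituitary gland. It was 1 mouse for each hippocampus array, FVB/NJ hypothalamus replicate 2 and A/J pag replicate 2. By the study's methods, hippocampus tissue was frozen on dry ice, while the smaller structures were collected in RNA Later. In comparisons with the hippocampus, region therefore cannot be told apart from preservation. A signal below is the deposited, globally scaled value on a linear scale, and a log2 difference is between log2 signals taken with 12.8, the 20th percentile over the whole table, as the lowest value allowed (the floor).

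GABA is made from glutamate by glutamic acid decarboxylase. Gad1 encodes its larger form, found through the whole neuron, and Gad2 its smaller form, found mainly at nerve terminals. Slc32a1 encodes the vesicular transporter that loads both GABA and glycine into synaptic vesicles. Abat encodes GABA transaminase, the mitochondrial enzyme that degrades GABA in neurons and glia. Slc6a13 is a plasma membrane GABA transporter known mainly from the meninges and from liver and kidney. Slc6a9 is the glycine transporter GlyT1, mainly of astrocytes, and Slc6a5 is the glycine transporter GlyT2, a marker of glycinergic neurons, whose cell bodies lie mostly in the brainstem and spinal cord.

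Each region was checked by its own marker genes. The summed signal of 7 hippocampal principal neuron markers was 11924 to 14239 in the hippocampus and at most 3352 elsewhere, that of 9 pituitary markers 40223 to 54171 in the pituitary gland and at most 7166 elsewhere, and that of 11 midbrain and brainstem markers 3379 to 6610 in the pag and at most 1214 elsewhere. The sum of 9 hypothalamic markers was 13113 to 21628 in the hypothalamus and overlapped with the pituitary gland, at 9105 to 14392. The bnst arrays summed to 5374 to 12385 of these hypothalamic markers, against at most 2857 in the pag and 670 in the hippocampus. No marker list was specific to the bnst. Its arrays carried the highest sum of 7 thalamic markers, 3494 to 7929 against at most 2162 elsewhere, and a sum of 8 choroid plexus markers between 397 and 10768, and the part of neighbouring tissue in the bnst values was not tested. As the arrays measured tissue RNA, more cells of a type cannot be told apart from more RNA per cell.

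The 3 genes that define a GABAergic neuron, Gad1, Gad2 and Slc32a1, moved together between brain and pituitary gland. Their upstream sequences are shown for that reason, as the 250 bases before a RefSeq transcript start. For all 3 genes this window lies inside the annotated span of the gene and not before its first base. Capitals mark matches on either strand to the TATA box, spelled TATAAA, to the CCAAT box, to the GC box, spelled GGGCGG, and to the homeodomain core, spelled TAATTA.
Gad1 (GRCm38.p6, chr2:70561879-70562128, + strand): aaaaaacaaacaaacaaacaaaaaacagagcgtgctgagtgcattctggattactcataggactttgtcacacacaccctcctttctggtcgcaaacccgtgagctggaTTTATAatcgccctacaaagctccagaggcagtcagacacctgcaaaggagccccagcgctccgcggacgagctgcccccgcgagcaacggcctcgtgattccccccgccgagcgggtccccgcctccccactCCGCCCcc
Gad2 (GRCm38.p6, chr2:22622077-22622326, + strand): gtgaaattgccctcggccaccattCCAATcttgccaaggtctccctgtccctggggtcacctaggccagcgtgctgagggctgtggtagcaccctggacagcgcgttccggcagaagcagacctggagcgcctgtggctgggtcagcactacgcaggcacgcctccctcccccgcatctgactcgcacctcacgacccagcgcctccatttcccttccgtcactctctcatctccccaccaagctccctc
Slc32a1 (GRCm38.p6, chr2:158610508-158610757, + strand): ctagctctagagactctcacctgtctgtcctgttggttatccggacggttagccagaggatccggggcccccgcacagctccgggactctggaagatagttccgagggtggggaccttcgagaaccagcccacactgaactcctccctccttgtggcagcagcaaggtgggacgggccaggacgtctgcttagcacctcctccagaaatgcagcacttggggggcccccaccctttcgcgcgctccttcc
The Gad1 window held 1 TATA box and 1 GC box, the Gad2 window 1 CCAAT box, and the Slc32a1 window no match to any of these letters. Of all 32851 windows of that length, 12.4% held the TATA box, 32.7% the GC box, 33.8% the CCAAT box and 4.84% the homeodomain core. The 3 windows contained 17, 13 and 12 CG dinucleotides, in the order Gad1, Gad2, Slc32a1, against a median of 6 over all windows.

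Gad1 was high in every brain region and near background in the pituitary gland. Its brighter probe set (1416561_at) read 1775 to 2679 in the bnst (median 2111, n = 13), 1598 to 2324 in the pag (median 1872, n = 12), 1391 to 1950 in the hypothalamus (median 1729, n = 12) and 1303 to 1734 in the hippocampus (median 1628, n = 12). In the pituitary gland it read 4.21 to 30.5, with 9 of 12 arrays above the floor. The order of the means was bnst, pag, hypothalamus, hippocampus and pituitary gland, at 2146 ± 256, 1921 ± 192, 1750 ± 161, 1563 ± 139 and 16.1 ± 6.54 (SD). Of the neighbours in that order, only hippocampus and pituitary gland differed past the threshold (log2 difference 6.59 ± 0.08, SE, limma adjusted p = 2.70e-38), and the size and SE of that difference depend on the floor, as 3 of 12 pituitary gland arrays were at or under it. The bnst minus pag difference was 0.15 ± 0.08 (adjusted p = 0.161), the pag differed from the hypothalamus by 0.13 (hypothalamus minus pag -0.13 ± 0.08, adjusted p = 0.229), and the hippocampus minus hypothalamus difference was -0.16 ± 0.08 (adjusted p = 0.110). With the floor at the 40th percentile the bnst and pag (adjusted p = 0.0229) and the hippocampus and hypothalamus (adjusted p = 0.0101) did differ past it, as they did on linear signals (adjusted p = 0.0132 and 0.0262). The second Gad1 probe set (1416562_at) gave the same order of means, 1386 ± 92.3, 1293 ± 153, 1049 ± 115, 961 ± 105 and 8.16 ± 6.80, and separated the hypothalamus from the pag (-0.30 ± 0.06, adjusted p = 0.000113), a call lost with the floor at the 10th percentile (adjusted p = 0.259).

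Gad2 fell much further than Gad1 in the hippocampus. The brighter probe set (1429589_at) read 1229 to 1864 in the bnst (median 1366), 903 to 1570 in the pag (median 1265), 1004 to 1469 in the hypothalamus (median 1140), 315 to 602 in the hippocampus (median 480) and 5.16 to 97.8 in the pituitary gland (median 38.1). The hippocampus arrays lay below every bnst, hypothalamus and pag array, and the hippocampus minus hypothalamus difference was -1.34 ± 0.10 (adjusted p = 2.13e-14). The bnst exceeded the hypothalamus by 0.29 ± 0.09 (adjusted p = 0.0214), a call lost without FVB/NJ hypothalamus replicate 2 (adjusted p = 0.0501), with the floor at the 10th percentile (adjusted p = 0.109) and with each array scaled to the same median (adjusted p = 0.0552). Hypothalamus and pag did not differ past the threshold (-0.07 ± 0.10, adjusted p = 0.646). The dimmer Gad2 probe set (1421978_at) also placed the hippocampus below the other brain regions, with means of 523 ± 108 in the pag, 480 ± 95.1 in the bnst, 347 ± 93.0 in the hypothalamus, 181 ± 28.5 in the hippocampus and 58.9 ± 28.3 in the pituitary gland, and it did separate hypothalamus from pag (-0.62 ± 0.07, adjusted p = 2.92e-08).

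Slc32a1, the vesicular transporter, resembled Gad2. Its bright probe set (1422756_at) read 739 to 1282 in the bnst (median 942), 862 to 1122 in the pag (median 1001), 622 to 978 in the hypothalamus (median 793) and 284 to 389 in the hippocampus (median 347). In the pituitary gland it read -4.48 to 23.5, with 2 of 12 arrays above the floor, so a log2 difference against the pituitary gland depends on the floor. The hippocampus arrays again lay below all other brain arrays (hippocampus minus hypothalamus -1.17 ± 0.07, adjusted p = 2.96e-17). The bnst and pag means, 999 ± 148 and 985 ± 88.7, did not differ past the threshold (0.02 ± 0.06, adjusted p = 0.900), and both exceeded the hypothalamus mean of 781 ± 90.8 (adjusted p = 5.20e-05 and 0.000121). The other 3 Slc32a1 probe sets carried no region signal: 1456457_at averaged 21.5 to 28.4 in the 5 regions, 1447574_s_at 0.969 to 9.32, and 1447573_at was under the floor on all 61 arrays and was not tested.

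**Figure D1:**
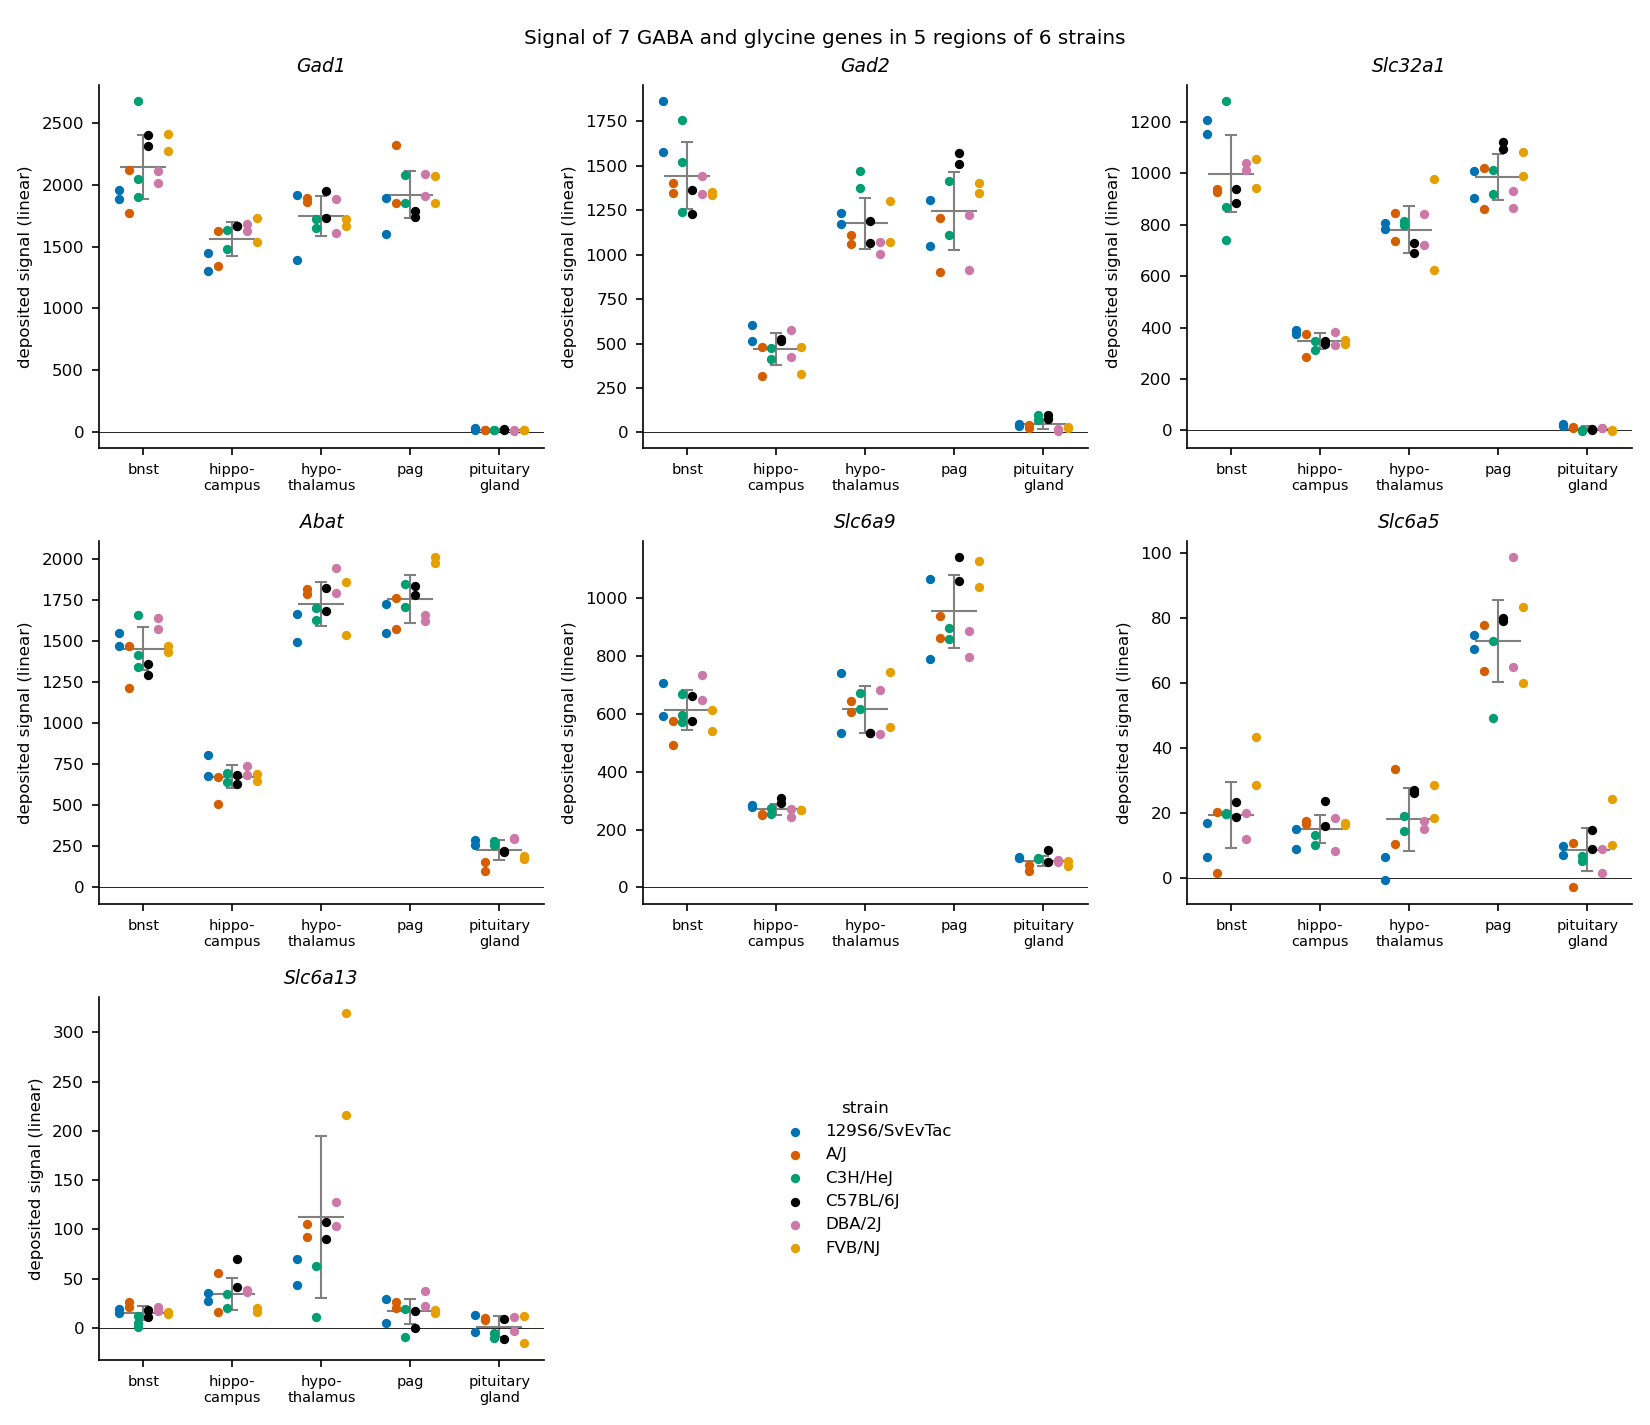
Deposited signal (linear axis, each panel on its own scale) of the brightest probe set of each gene in 5 regions, with 1 point per array coloured by strain and grey bars giving the region mean and SD over 12 arrays, or 13 for the bnst. Gad1 stays between 1303 and 2679 in the 4 brain regions, whereas Gad2, Slc32a1, Abat and Slc6a9 drop in the hippocampus, Slc6a5 stands out in the pag and Slc6a13 in the hypothalamus.

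The difference between the hippocampus and the other brain regions was set side by side for all 7 genes in each strain, on the brightest probe set of each. This is a description with no test, as it followed from values already seen. Hippocampus minus hypothalamus was -0.34 to -0.05 for Gad1 across the 6 strains and -1.69 to -1.07 for Gad2, a gap of -1.18 ± 0.30 on the log2 scale (SD over strains, n = 6). The gap to Gad1 was -1.002 ± 0.14 for Slc32a1, -1.02 ± 0.20 for Slc6a9 and -1.20 ± 0.18 for Abat, below 0 in 6 of 6 strains for each. The other 2 genes did not follow these 4 in every comparison. Slc6a5, near the floor in both regions, was -0.47 to 0.12 for hippocampus minus hypothalamus, a range that overlapped with that of Gad1. Slc6a13 did follow them for hippocampus minus hypothalamus, with a gap to Gad1 of -1.35 ± 1.33, below 0 in 6 of 6 strains. Against the second Gad1 probe set the gap was below 0 in 5 of 6. However, Slc6a13 was lower in the bnst than in the hippocampus, at -1.83 to -0.26 for bnst minus hippocampus. Gad1 and these 4 genes were higher in the bnst in 6 of 6 strains.

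**Figure D2:**
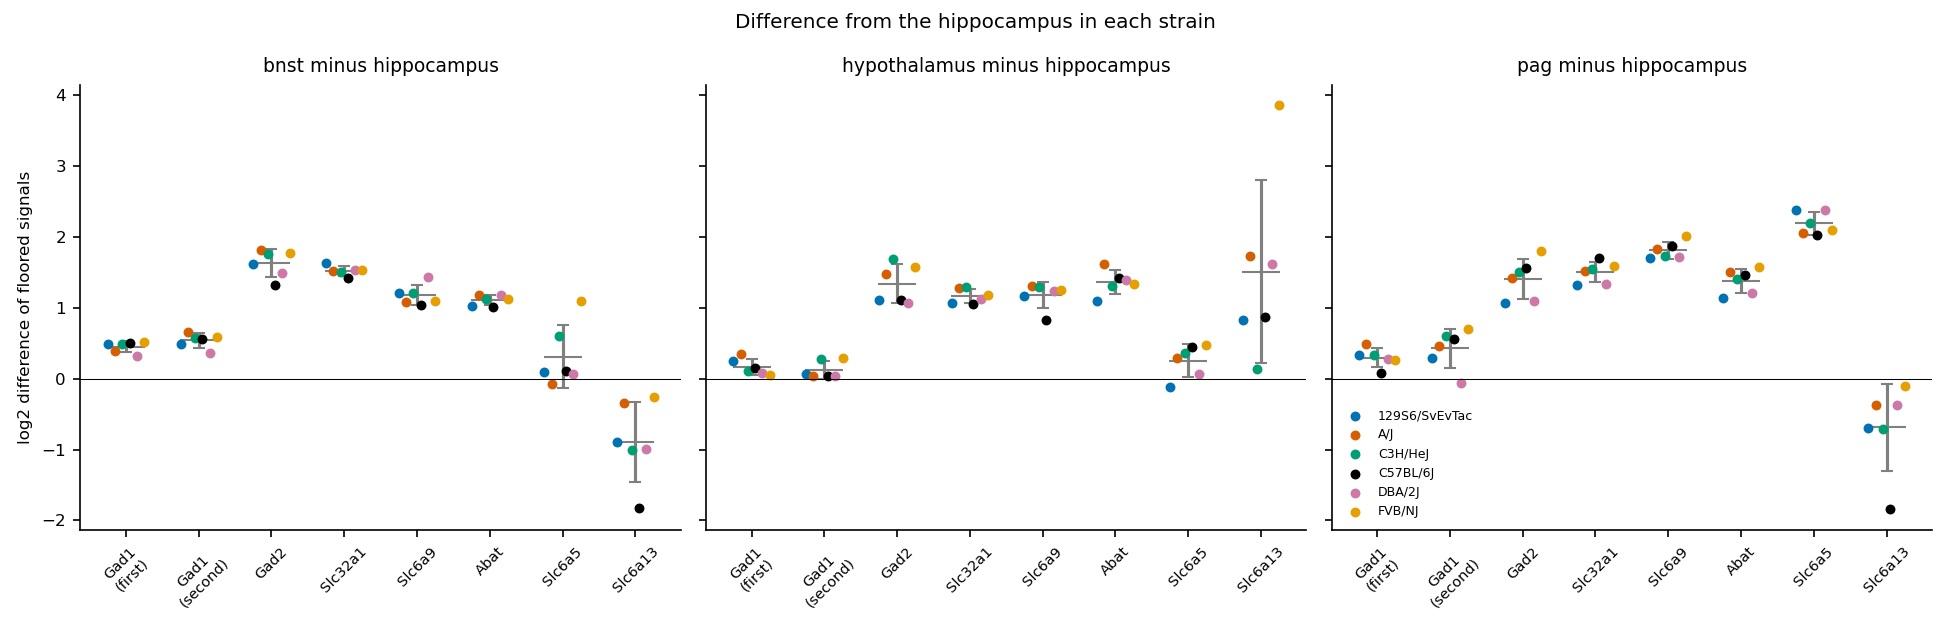
Log2 difference of floored signals from the hippocampus for the bnst, hypothalamus and pag (3 panels), with 1 point per strain and grey bars giving the mean and SD over 6 strains, for both Gad1 probe sets and the brightest probe sets of the other 6 genes. For the hypothalamus, Gad1 lies between 0.03 and 0.34, Gad2, Slc32a1, Slc6a9 and Abat between 0.83 and 1.69, Slc6a5 between -0.12 and 0.47 and Slc6a13 between 0.13 and 3.87.

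Abat, the GABA-degrading enzyme, was lowest in the hippocampus among brain regions and remained detectable in the pituitary gland. Its bright probe set (1433855_at) read 1549 to 2009 in the pag (median 1740), 1490 to 1943 in the hypothalamus (median 1742), 1211 to 1657 in the bnst (median 1466), 510 to 805 in the hippocampus (median 681) and 101 to 299 in the pituitary gland (median 240). The hippocampus and pituitary gland ranges overlapped with no other region. Pag and hypothalamus means, 1752 ± 145 and 1725 ± 135, did not differ past the threshold (-0.02 ± 0.05 for hypothalamus minus pag, adjusted p = 0.825). The bnst was below the hypothalamus by 0.25 on the log2 scale (-0.25 ± 0.05, adjusted p = 0.000338), whereas Gad1 was higher in the bnst than in the hypothalamus (0.29 ± 0.08, adjusted p = 0.00507). The Abat call was lost with each array scaled to the same median (adjusted p = 0.0904) and the Gad1 call with the floor at the 10th percentile (adjusted p = 0.0573). The dim Abat probe set (1422226_at) averaged 26.2 to 44.6 and was highest in the pituitary gland, against the order of the bright one.

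Slc6a9, the glial glycine transporter, was highest in the pag. Probe set 1417636_at read 790 to 1142 in the pag (median 916), 531 to 744 in the hypothalamus (median 612), 493 to 736 in the bnst (median 595), 242 to 308 in the hippocampus (median 270) and 57.8 to 129 in the pituitary gland (median 92.7). The pag arrays lay above every other array, and the pag exceeded the hypothalamus (hypothalamus minus pag -0.63 ± 0.07, adjusted p = 1.59e-09). Hypothalamus and bnst means, 616 ± 80.8 and 613 ± 68.1, were close (bnst minus hypothalamus 0.00 ± 0.06). The second Slc6a9 probe set (1431812_a_at) had the same leading region, with means of 453 ± 130 in the pag, 279 ± 93.8 in the bnst, 264 ± 71.7 in the hypothalamus, 100 ± 17.7 in the hippocampus and 37.5 ± 13.1 in the pituitary gland. The summed signal of 8 astrocyte markers was 11062 to 13095 in the pag, 10157 to 13288 in the hypothalamus, 8556 to 10592 in the hippocampus, 8884 to 11052 in the bnst and 2094 to 2675 in the pituitary gland. The hypothalamus and pag ranges of this sum overlapped. Those of Slc6a9 did not on 1417636_at but did on 1431812_a_at, at 109 to 350 and 248 to 678. The part of the sum in the Slc6a9 differences was not tested.

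Slc6a5, the neuronal glycine transporter, was highest in the pag. Probe set 1442177_at read 49.1 to 98.7 there (median 73.9, mean 72.9 ± 12.7), above every array of the other regions. Its means were 19.2 ± 10.1 in the bnst, 17.96 ± 9.80 in the hypothalamus, 15.1 ± 4.40 in the hippocampus and 8.66 ± 6.67 in the pituitary gland, close to the floor of 12.8. The pag was higher in 6 of 6 strains in every pairing, and the hypothalamus minus pag difference was -1.94 ± 0.13 (adjusted p = 7.20e-14). Bnst, hypothalamus and hippocampus did not differ from one another past the threshold (adjusted p = 0.0661 to 0.840). The other Slc6a5 probe set (1425992_at) averaged 18.2 to 29.0, was not higher in the pag than in the other brain regions (adjusted p = 0.462 to 0.711) and read highest in the pituitary gland.

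Slc6a13, the meningeal GABA transporter, was highest in the hypothalamus and varied most there. Its probe set (1424338_at) read 10.5 to 320 in the hypothalamus (median 97.6, mean 112 ± 82.2), 15.9 to 69.8 in the hippocampus (median 34.6), -9.00 to 37.6 in the pag (median 18.8), 0.75 to 26.4 in the bnst (median 15.9) and -16.0 to 12.8 in the pituitary gland (median 2.5). The hypothalamus exceeded the hippocampus in 6 of 6 strains (hippocampus minus hypothalamus -1.51 ± 0.19, adjusted p = 3.05e-08), although the array ranges overlapped. Pag and bnst did not differ past the threshold (-0.21 ± 0.19, adjusted p = 0.496). Markers of meninges and vascular fibroblasts moved with it. The summed signal of 16 such genes was 3587 to 12904 in the hypothalamus and 5018 to 6486 in the hippocampus. It was 2802 to 5607 in the bnst and 2910 to 4820 in the pag. Ptgds had the highest signal of the 16 in the hypothalamus, where the sum without it was 1158 to 6788. The part of these markers in the Slc6a13 differences was not tested. In the pituitary gland the sum of all 16 was 5844 to 6582 while Slc6a13 was above the floor on 1 of 12 arrays.

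The F test of region called 12 of the 14 member probe sets tested at an adjusted p under 0.05, where 71.7% of all 44065 tested probe sets were called, and the F test of strain called 7, where 39.2% were called. By region pair, 9 passed for bnst against hippocampus (8 higher in the bnst, 1 lower, background 33.7%), 7 for hippocampus against hypothalamus (all lower in the hippocampus, 36.8%) and 10 for hippocampus against pag (1 higher, 9 lower in the hippocampus, 42.2%). For bnst against hypothalamus 7 passed (5 higher in the bnst, 23.1%), for bnst against pag 5 (all lower in the bnst, 23.1%) and for hypothalamus against pag 7 (1 higher in the hypothalamus, 26.2%). Against the pituitary gland 10 passed for the bnst (62%), 11 for the hippocampus (62.7%), 11 for the hypothalamus (60.3%) and 11 for the pag (60.1%), with 9, 9, 10 and 10 of them lower in the pituitary gland. The median log2 difference of the 14 was 0.49 for bnst minus hippocampus, against 0.01 over all probe sets tested, and -0.58 for hippocampus minus hypothalamus, against -0.02. The 14 include 4 probe sets with no region mean of 50 or more and several probe sets of 1 gene, so they are not 14 independent values. Scaling each array to the same median raised the share of called probe sets that were higher in the bnst from 40.1% to 64.5% against the pag and from 41.3% to 52.7% against the hypothalamus, and the share higher in the hippocampus from 40.7% to 55.1% against the pag. It also raised the share higher in the hypothalamus than in the pag from 49.3% to 61%, and the shares higher than in the pituitary gland from 37.9% to 48.1% for the bnst and from 37.5% to 48.4% for the hippocampus.

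Of the 16 strain calls over the 5 regions, 9 were lost in the 4 brain regions alone. Each strain was compared with the mean of the other 5, each region weighted equally. Of the 14 member probe sets, 5 were called in A/J (all lower, background 15.1%), 3 in C57BL/6J (all higher, 22%), 3 in DBA/2J (1 higher, 2 lower, 13.5%), 2 in 129S6/SvEvTac (both higher, 18.7%), 2 in C3H/HeJ (1 each way, 10.5%) and 1 in FVB/NJ (higher, 11%). In those 4 regions, an alternative added after the values had been seen, 2 were called in A/J (11.6%), 2 in C57BL/6J (17.7%), 1 in DBA/2J (8.38%), 3 in 129S6/SvEvTac (14.9%), 1 in C3H/HeJ (7.41%) and 0 in FVB/NJ (7.99%). In FVB/NJ, 3 member probe sets had an unadjusted limma p under 0.05 in the brain regions. The same count was 4 in 129S6/SvEvTac, 5 in A/J, 2 in C3H/HeJ, 3 in C57BL/6J and 2 in DBA/2J. The share of all probe sets at this unadjusted threshold was not counted.

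Slc6a9 was called in 4 strains on its dimmer probe set and in 1 on its brighter. On 1431812_a_at, A/J read 161 and 118 in the bnst, 73.9 and 75.8 in the hippocampus and 109 and 156 in the hypothalamus, below every array of the other strains in each of these regions. In the pag, A/J read 431 and 309, within the range of the others. A/J was 0.57 below the other strains over the 5 regions (-0.57 ± 0.09, limma adjusted p = 1.57e-05) and 0.75 below over the 4 brain regions (-0.75 ± 0.09, adjusted p = 1.67e-07). On the brighter 1417636_at the A/J difference was -0.19 ± 0.06 (adjusted p = 0.0166, or 0.0536 with each array scaled to the same median) over 5 regions and -0.10 over the brain regions (adjusted p = 0.286), and the difference between the probe sets was not tested. On 1431812_a_at, C57BL/6J was higher (0.44 ± 0.09, adjusted p = 0.000436; 0.34 in the brain alone, adjusted p = 0.00491) and so was 129S6/SvEvTac (0.37 ± 0.09, adjusted p = 0.00330; 0.43 in the brain alone, adjusted p = 0.000568). DBA/2J was lower on it (-0.39 ± 0.09, adjusted p = 0.00298; -0.33 in the brain alone, adjusted p = 0.0120), a call lost with each array scaled to the same median (-0.26, adjusted p = 0.0957) and under quantile normalization (-0.30, adjusted p = 0.0502). The bright probe set passed in none of these 3 strains.

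**Figure D3:**
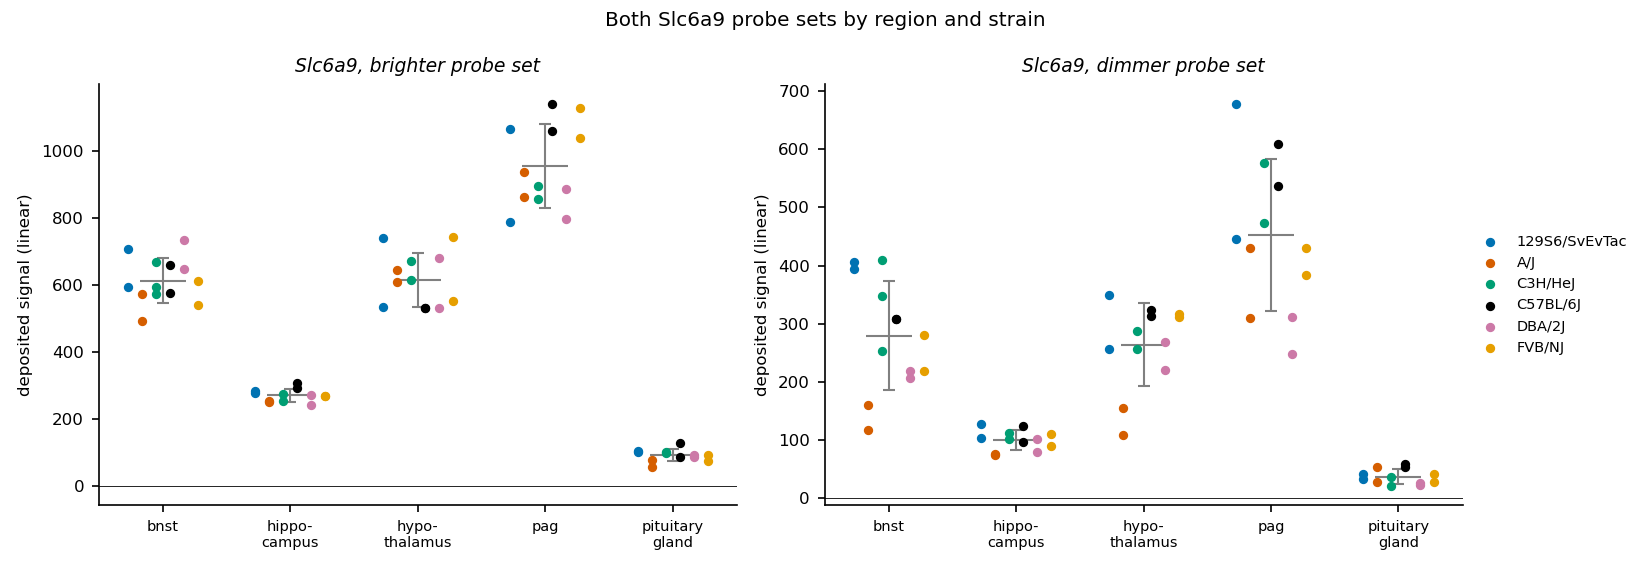
Deposited signal (linear axes) of both Slc6a9 probe sets in 5 regions, 1 point per array coloured by strain, with grey bars for the mean and SD of each region. The A/J arrays lie lowest in the bnst, hippocampus and hypothalamus on the dimmer probe set, between 73.9 and 161, and within the other strains in the hypothalamus on the brighter one.

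Gad2 was higher in C57BL/6J on both probe sets and lower in A/J. On 1421978_at, C57BL/6J read 680 and 728 in the pag and 124 and 103 in the pituitary gland, above every other array in both regions, and its difference was 0.47 ± 0.06 over 5 regions (adjusted p = 3.28e-07) and 0.27 over the brain regions (adjusted p = 0.00277). On the same probe set A/J read 225 and 174 in the hypothalamus, below all other hypothalamus arrays (282 to 474), and its difference was -0.25 ± 0.06 (adjusted p = 0.00425), or -0.31 in the brain (adjusted p = 0.00103). In the brain alone, 129S6/SvEvTac was higher on 1421978_at (0.20 ± 0.06, limma adjusted p = 0.0298). It was not called over 5 regions as processed here, but was on linear signals (limma adjusted p = 0.0157). On the brighter 1429589_at, A/J read 1110 and 1061 in the hypothalamus, inside the range of the other strains. That probe set passed in A/J (-0.24 ± 0.08, adjusted p = 0.0361), C3H/HeJ (0.32 ± 0.08, adjusted p = 0.00553), C57BL/6J (0.33 ± 0.08, adjusted p = 0.00225) and DBA/2J (-0.39 ± 0.08, adjusted p = 0.000763). All 4 of these calls were lost without the pituitary gland (brain differences -0.19, 0.09, 0.09 and -0.10, adjusted p = 0.0936, 0.639, 0.487 and 0.516). In the pituitary gland it read 67.8 and 95.4 in C3H/HeJ, 73.8 and 97.8 in C57BL/6J and 5.16 and 21.2 in DBA/2J.

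**Figure D4:**
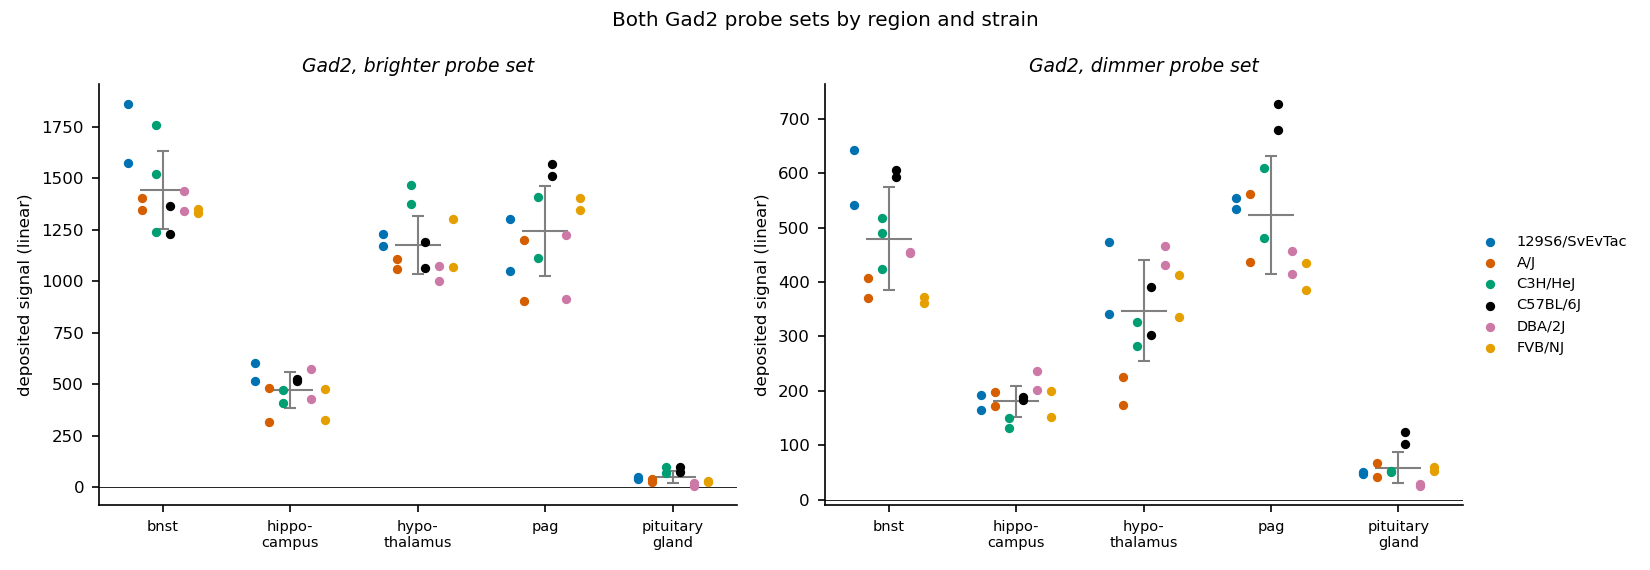
Deposited signal (linear axes) of both Gad2 probe sets in 5 regions, 1 point per array coloured by strain, with grey bars for the mean and SD of each region. On the dimmer probe set the A/J hypothalamus arrays are the lowest of their region, at 174 and 225, and the C57BL/6J pag arrays the highest of theirs, at 680 and 728.

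Gad1 passed in no strain contrast on either probe set over 5 regions as processed here, but did under other floors, scalings, weights or linear signals in 129S6/SvEvTac, C57BL/6J or A/J (adjusted p = 0.0225 to 0.0486). In the 4 brain regions, 1416561_at was lower in 129S6/SvEvTac (-0.17 ± 0.05, adjusted p = 0.0347), where it read 1303 and 1450 in the hippocampus and 1391 and 1918 in the hypothalamus. Slc32a1 was higher in 129S6/SvEvTac (0.24 ± 0.06, adjusted p = 0.00205), a call lost in the brain alone (0.11, adjusted p = 0.268); that strain's pituitary glands read 18.8 and 23.5 and were the 2 arrays above the floor. Abat was lower in A/J (-0.27 ± 0.05, adjusted p = 4.17e-05), whose pituitary glands read 157 and 101 against 175 to 299 in the other strains, and the call was lost in the brain alone (-0.09, adjusted p = 0.191). Abat was higher in DBA/2J (0.17 ± 0.05, adjusted p = 0.0103), also lost in the brain alone (0.08, adjusted p = 0.344). Slc6a5 was higher in FVB/NJ (0.37 ± 0.11, adjusted p = 0.0237), and this was lost without FVB/NJ pituitary gland replicate 2 (adjusted p = 0.137) and in the brain alone (adjusted p = 0.104).

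Slc6a13 varied with strain in the hypothalamus. FVB/NJ read 216 and 320 there, above every array of the other strains, which ran from 10.5 to 128. The array at 320 was not a pool of mice, unlike the other hypothalamus arrays. C3H/HeJ read 62.7 and 10.5 and was the one strain called over the 5 regions, although FVB/NJ passed with the floor at the 40th percentile (adjusted p = 0.00311) and on linear signals (adjusted p = 0.000126). The C3H/HeJ difference was -0.61 ± 0.16 (adjusted p = 0.00735; -0.78 ± 0.20 in the brain alone, adjusted p = 0.00947), a call lost without C3H/HeJ hypothalamus replicate 2 (-0.39, adjusted p = 0.0894). The meningeal and fibroblast markers moved with these arrays. Their sum was 10129 and 12904 in FVB/NJ hypothalamus and 3587 to 9843 in the other strains. Without Ptgds it was 4243 and 6788 in FVB/NJ and 1158 to 3954 in the other strains. All 16 markers were above the floor on all 12 hypothalamus arrays, and 15 of the 16 had their highest strain mean in FVB/NJ. The lowest strain mean was in 129S6/SvEvTac for 14 of the 16 and in C3H/HeJ for 2, whereas Slc6a13 was lowest in C3H/HeJ. The part of these markers in the strain differences was not tested.

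**Figure D5:**
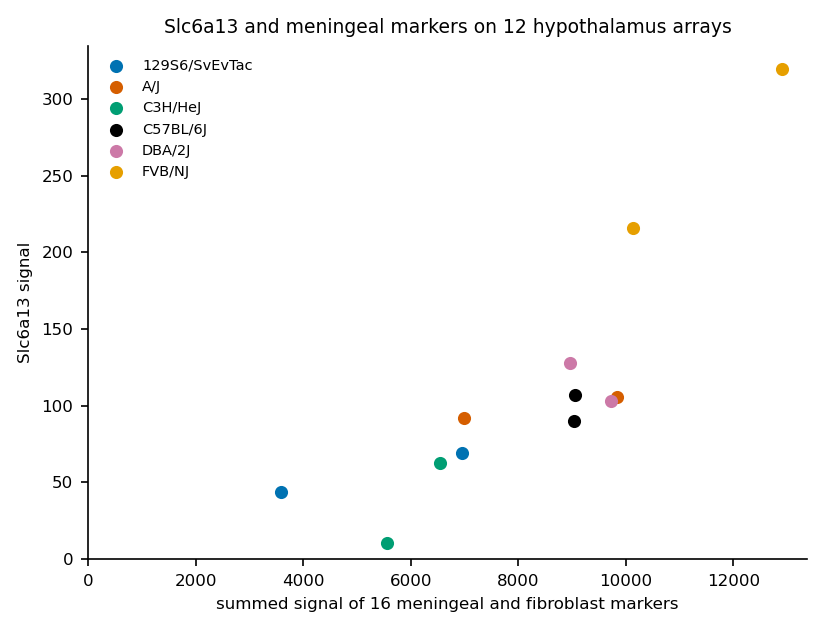
Slc6a13 signal (vertical, linear) against the summed signal of 16 meningeal and fibroblast markers (horizontal, linear) on the 12 hypothalamus arrays, 1 point per array coloured by strain. Both FVB/NJ arrays lie at the upper right, at 216 and 320 for Slc6a13 and 10129 and 12904 for the markers, and a C3H/HeJ array is lowest for Slc6a13 at 10.5.

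A two-factor regression of the unfloored signals on strain, region and their interaction, at p under 0.01, called 11 of the 15 member probe sets region-specific, where 60.6% of all 45037 were, and 0 strain-specific, where 8.87% were. A probe set counted as strain-specific where its p for strain was under 0.01 and below its p for region. The p for strain alone was under 0.01 for 3 member probe sets and under 0.05 for 5, each with a smaller p for region. This regression, built after the one in the methods, differed from it. All probe sets were kept and not those scored Present alone. The p-values came from the F distribution alone, whereas the study used both that distribution and permutations for strain and region. The interaction was read from the regression over all arrays and not from an analysis of variance without the unbalanced array. The regression gave an interaction of strain and region for 3 member probe sets, against 16% of all probe sets. These were Gad2 on 1421978_at, Slc6a13 and Slc6a9 on 1431812_a_at, with regression p-values of 1.12e-05, 2.38e-07 and 0.00376 over 61 arrays, not adjusted. On the floored log2 signals, limma's F test of interaction called 4 of the 14 member probe sets tested, where 11.3% of all were called, namely Gad2 on 1421978_at and 1429589_at (adjusted p = 9.15e-06 and 0.000231), Abat on 1433855_at (adjusted p = 0.000678) and Slc6a13 (adjusted p = 0.0371). The Slc6a13 call held in 50 of the 61 fits that each left out 1 array, with the highest adjusted p, 0.141, without FVB/NJ hypothalamus replicate 2. In the 4 brain regions 1 was called, where 2.35% of all were, and it was Gad2 on 1421978_at (adjusted p = 0.00743).

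The other genes of the pathway, from lists that leave out the 7 members, were counted on 1 probe set each. Of 16 measured genes of GABA uptake, supply and breakdown, 7 were lower and 6 higher in the hippocampus than in the hypothalamus (median log2 difference -0.13, against -0.02 over all probe sets). Between these regions 36.8% of all probe sets were called. Slc6a11, the GAT-3 transporter of astrocytes, went with Gad2 and Abat, at 948 ± 181 in the hypothalamus, 225 ± 43.2 in the hippocampus and 1120 ± 307 in the pag (hippocampus minus hypothalamus -2.08, adjusted p = 2.5e-17). Aldh5a1, which acts after Abat in GABA breakdown, was lower in the hippocampus too (-0.40, adjusted p = 3.4e-09), whereas Slc1a2, the main glutamate transporter of astrocytes, was higher there (0.68, adjusted p = 6.3e-11). Slc6a12, the betaine and GABA transporter, did not pass (-0.09, adjusted p = 0.16). Of these 16 genes 10 were higher in the pag than in the bnst and 2 lower, where 23.1% of all probe sets were called and 40.1% of those calls were higher in the bnst, or 64.5% with each array scaled to the same median.

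Of 15 measured genes of glycine synthesis, breakdown and reception, 8 were lower and 3 higher in the hippocampus than in the pag (median -0.27, against -0.08 over all probe sets). Between these regions 42.2% of all probe sets were called. Glra1, a glycine receptor subunit, read 137 ± 36.3 in the pag, 43.7 ± 14.4 in the hypothalamus and 39.8 ± 17.9 in the bnst, and was at or below 0 on average in the hippocampus and pituitary gland (hypothalamus minus pag -1.68, adjusted p = 1.6e-12). Glra3, another subunit, was highest in the hypothalamus at 200 ± 56.6. Gldc, an enzyme of glycine cleavage, ran the other way, at 179 ± 20.3 in the hippocampus and 47.8 ± 13.6 in the pag (1.95, adjusted p = 4.1e-14). Glrb, the receptor's beta subunit, did not pass between hippocampus and pag (-0.27, adjusted p = 0.052).

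Of 7 measured genes of vesicle loading, 3 were lower and 3 higher in the hippocampus than in the hypothalamus. Between these regions 36.8% of all probe sets were called. The vesicular glutamate transporters moved in opposite directions, Slc17a6 being lower in the hippocampus (220 ± 32.4 against 1439 ± 123, log2 difference -2.72) and Slc17a7 higher (1670 ± 418 against 39.3 ± 63.8, log2 difference 6.04). Of 16 measured transcription factors of GABAergic neurons, 10 were higher and 4 lower in the bnst than in the pag. There 23.1% of all probe sets were called, and 40.1% of those calls were higher in the bnst, or 64.5% with each array scaled to the same median. Dlx1, a forebrain GABAergic factor, read 291 ± 62.0 in the bnst, 299 ± 24.1 in the hypothalamus, 140 ± 16.8 in the hippocampus and 15.8 ± 10.9 in the pag, while the log2 differences of bnst minus pag were 0.15, 0.22 and 0.02 for Gad1, Gad2 and Slc32a1. Tal1 and Gata3, factors of midbrain GABAergic neurons, read 257 ± 23.3 and 156 ± 21.9 in the pag, and in the other regions Tal1 averaged 31.8 to 37.0 and Gata3 below 0. Not all listed factors followed them. Gata2 read 178 ± 20.6 in the pag, averaged 87.5 to 101 in the other brain regions and read 458 ± 124 in the pituitary gland. Isl1 and Six3 read 322 ± 126 and 427 ± 81.2 in the pituitary gland, against 16.5 and 92.1 in the pag.

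The genes with the most similar profile over the 30 group means of log2 signal were looked up for each member among probe sets of 1 gene that reached 100 in some group. These are correlations across groups on 1 set of arrays with shared scaling, and 6 of the 30 groups are pituitary glands. For Gad1 they were led by Map4 (r = 0.998), Vsnl1 and Ndrg2 (both r = 0.996). For Gad2 they were Rgs17 (r = 0.978), then Slc32a1 (r = 0.977), and for Slc32a1 Kcna6 (r = 0.996) and Gap43 (r = 0.994). Slc6a5 was closest to Gata3 (r = 0.926), the serotonin transporter Slc6a4 (r = 0.926) and Tph2 (r = 0.924), and Slc6a13 to Fmod (r = 0.901), Gjb2 (r = 0.875) and Slc22a6 (r = 0.865). Slc6a9 was closest to Samd4 (r = 0.983) and Abat to 5031439G07Rik (r = 0.983). Within the 24 brain groups, Gad2 and Slc32a1 had r = 0.972, while Gad1 had r = 0.676 with Gad2 and r = 0.724 with Slc32a1.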

How the data were processed

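The deposited values were, per the labels and the study's methods, probe set intensities made by the authors from scanned Affymetrix mouse whole-genome arrays, background corrected and scaled globally in TeraGenomics. They were linear and not logged, and 5.36% were below 0. Array means ran from 180 to 201 and medians from 42.6 to 67.1. The 64 control probe sets were left out. Signals under 12.8 were raised to that floor, log2 was taken, and 30 group means were fitted to the 44065 probe sets above the floor on any array with limma 3.58.1 (R 4.3.3; lmFit, eBayes with trend, Benjamini-Hochberg within each contrast). Region pairs weighted strains equally. A two-factor regression after the study's methods was run on all 45037 probe sets, with no Present filter and with p-values from the F distribution. Scripts were tested on simulated data. The number of arrays limits the precision, and a p-value measures the spread between replicate arrays of separate animals or pools. Gene names came from the platform annotation: 34945 probe sets named 1 gene, 932 several and 9160 none. Promoters came from RefSeq tables of GRCm38.p6, which held an entry for every member except Abat. Replicate arrays correlated at 0.974 or more. Each gene is described first by its probe set of highest mean signal, list genes by theirs, with examples of the largest differences each way and 1 that did not pass, and likeness by the 5 highest Pearson correlations, of which up to 3 are printed. The members, lists and comparisons were chosen with earlier results of these data known. The alternatives were other floors, scalings, filters, weights, linear signals, a replicate block, each array left out and the pituitary gland left out. Figures were drawn with matplotlib 3.10.9.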

Additional observations from a re-analysis of the deposited data

Results flagged for a closer look

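The effect of strain differed between regions for 4 member probe sets by limma's F test of interaction, where 11.3% of all tested probe sets passed. Gad2 had adjusted p = 9.15e-06 on 1421978_at and 0.000231 on 1429589_at, Abat 0.000678 on 1433855_at and Slc6a13 0.0371 on 1424338_at. In the 4 brain regions alone, where 2.35% of probe sets passed, Gad2 on 1421978_at was the one member past the threshold (adjusted p = 0.00743), with the A/J hypothalamus at 225 and 174 and the C57BL/6J pag at 680 and 728. Slc6a13 had adjusted p = 0.139 there, and its call in all 5 regions held in 50 of the 61 fits that each left out 1 array, with the highest adjusted p, 0.141, without FVB/NJ hypothalamus replicate 2, the array at 320.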

How the results depend on the processing

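The 160 log2 differences of 10 member probe sets in 16 contrasts were compared under up to 11 alternatives. The side of the threshold was kept in 1549 of 1628 comparisons, 45 lost a call and 34 gained one. Direction was compared only where the main fit or the alternative gave a call, and 0 of these reversed. Counts of called member probe sets moved as follows. A floor at the 10th percentile gave 4 for bnst against hypothalamus, and one at the 40th gave 7 interactions. Scaling to the same median gave 10 over the strain contrasts in place of 16, with 1 in 129S6/SvEvTac, 3 in A/J and 1 in DBA/2J, and moved the share of all calls that were higher from 53.0% to 25.8% in C57BL/6J, from 44.4% to 80.9% in DBA/2J and from 53.0% to 42.6% in 129S6/SvEvTac, where quantile normalization gave 48.4%, 58.2% and 50.1%. A minimum mean signal of 50 gave 3 for bnst against pag, 1 in C3H/HeJ and 0 in FVB/NJ. Array weights gave 5 in C57BL/6J. Linear signals gave 8 for bnst against pag, 2 in A/J, 1 in C3H/HeJ, 1 in DBA/2J and 2 in FVB/NJ. The brain alone gave 9 over the strain contrasts and 1 interaction, with 2 in A/J, 1 in C3H/HeJ, 1 in DBA/2J and 0 in FVB/NJ. The regression gave 1 strain-specific probe set on floored log2 signals. The cause was not tested.

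Leaving out each array in turn gave 86 to 91 calls over region pairs, 15 to 19 over strain contrasts and 3 to 5 interactions. It gave 3 to 6 in A/J (3 without A/J bnst replicate 2 or A/J pituitary gland replicate 1), 3 to 5 in C57BL/6J (5 without its pituitary gland replicate 1), 1 to 2 in C3H/HeJ (1 without its hypothalamus replicate 2), 0 to 1 in FVB/NJ (0 without its replicate 2 of bnst, hippocampus, hypothalamus, pag or pituitary gland) and 2 to 6 regression interactions (5 or 6 without C3H/HeJ bnst replicate 2 or 3 or either FVB/NJ hypothalamus array). Where a group kept 1 array, it was assumed to vary like the other groups. Arrays of equal replicate number were not treated as paired. Deviations of 435 pairs of groups correlated from -0.42 to 0.41 (median -0.00), over 0.1 in 80 of them and in 13 of the 60 within 1 strain. A median near 0 cannot exclude shared animals or batches in some groups. With the number as a replicate block, the regression interactions rose from 3 to 6 and no other count moved past 1.5 times. Values near the floor limit the pituitary gland results.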
